A study of Mus musculus with 11 samples.

Results

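Aggrecan, versican and the genes of the hyaluronan matrix that holds them were described in the aortic arch of mice at postnatal day 11. The set has 10 genes: the proteoglycans Acan and Vcan, the link proteins Hapln1 and Hapln3, the hyaluronan synthase Has2, the hyaluronan receptor Cd44, and the proteases Adamts1, Adamts4, Adamts5 and Adamts9. They were matched by symbol and Ensembl ID among 48709 mouse genes in the count table. All 10 have a row there, 9 are in the authors' table of normalised CPM values, and the same 9 of 14757 genes had enough counts to be tested, the exception being Has2. The genes were chosen on results of these same libraries, with the comparison of genotypes already known. Their differences and adjusted p-values are therefore descriptions, and nothing is read from how many of them passed.

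The libraries came from 6 mice heterozygous for the Tgfbr2 substitution G357W (Het 1 to 6) and from 5 wild-type littermates, Tgfbr2 +/+ (WT 1 to 5). Het stands for Tgfbr2-G357W/+, and no agent was given to either genotype. The Tgfbr2 protein is one of the kinases through which TGF-beta signals, and mutations in it cause Loeys-Dietz syndrome in people, with aneurysm of the aorta. The labels list the tissue as aortic arch and the cells as vascular smooth muscle and endothelial cells. They give the allele as heterozygous, name no promoter or Cre that would limit it to a cell type, and give neither the sex nor the litter of each mouse. In bulk RNA, more cells of a type and more RNA per cell cannot be told apart.

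Aggrecan and versican are large proteoglycans of the lectican family. Their core proteins carry chondroitin sulfate chains, and their N-terminal domains bind hyaluronan, a long sugar polymer spun out at the cell surface by hyaluronan synthases. Link proteins lock this complex, CD44 ties it to the cell, and ADAMTS proteases called aggrecanases cut the core proteins. Aggrecan is best known as the swelling matrix component of cartilage, while versican is the usual large proteoglycan of the artery wall.

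Total counts per library were 13113467 to 19327935, and the limit that a count of 0 allows, 3 counts, was 0.154 to 0.231 CPM (counts in proportion to library size scaled with TMM factors, as in edgeR). Tgfbr2 itself averaged 39.0 ± 8.22 CPM in Het and 41.3 ± 4.29 CPM in WT (SD, n = 6 and 5), and its log2 fold change of -0.09 ± 0.13 (SE) did not pass. Gene counts do not separate the G357W codon from the wild-type one, so the genotypes cannot be checked from this level. WT 1 and WT 2 stood apart, at -49.7 and -47.1 on the first principal component, where the other 9 libraries lay between -16.4 and 29.1. Xist had 900 to 1139 counts in 7 libraries, which were Het 1, Het 2 and all 5 WT. Het 3 to 6 had at most 10 Xist counts and 1176 to 2039 counts of the Y-linked Ddx3y, so by these counts the sexes were unevenly divided between the groups. Where a sex score in the fit, or leaving out WT 1 and WT 2, ended a call, this is stated beside it.

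Acan was the member that differed most. It had 28.9, 50.9, 48.5, 51.4, 66.5 and 40.9 CPM in Het 1 to 6, against 4.30, 4.42, 4.83, 9.92 and 4.26 CPM in WT 1 to 5. Every Het library lay above every WT library, and the highest WT library, WT 4, was far under the lowest Het library, Het 1. The means were 47.9 ± 12.5 CPM in Het and 5.55 ± 2.46 CPM in WT (SD, n = 6 and 5). The log2 fold change, Het over WT, was 3.12 ± 0.25 (SE), an 8.66-fold difference, with an adjusted p of 6.28e-06 in edgeR's quasi-likelihood test over all 14757 genes. Among those genes Acan ranked 2 by log2 fold change and 9 by p. The gene (ENSMUSG00000030607) lies on the plus strand at chr7:79053483-79115099 (GRCm38), and the union of its exons is 7469 bases long.

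The difference in Acan was of similar size when sex was taken into account. With the sex score in the fit the log2 fold change was 2.85 ± 0.29 (adjusted p = 6.48e-04, edgeR). In the Xist-positive libraries alone, 2 Het and 5 WT, it was 2.86 ± 0.32 (adjusted p = 0.0127, edgeR). Without WT 1 and WT 2 it was 2.93 ± 0.32 (adjusted p = 7.58e-04, edgeR).

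Vcan, the other lectican of the set, showed no such difference. It had 73.0, 95.4 and 111 CPM as the lowest, median and highest values in Het, against 94.9, 95.1, 104, 108 and 99.8 CPM in WT 1 to 5. The groups overlapped: 3 Het libraries lay below the lowest WT library and 1 above the highest. Het averaged 92.5 ± 16.1 CPM and WT 100.4 ± 5.79 CPM (SD, n = 6 and 5). Het over WT, the log2 fold change was -0.12 ± 0.11 (SE; adjusted p = 0.618, edgeR). Spread also differed, with a coefficient of variation of 17.4% in Het and 5.77% in WT; that difference was not tested. Vcan (ENSMUSG00000021614) lies on the minus strand at chr13:89655312-89742509.

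The RefSeq promoters of the pair are shown because 1 of these related genes differed between the genotypes and the other did not pass. Each runs from 250 bases before RefSeq's annotated start to 50 after it, 5′ to 3′ on the gene's own strand (GRCm38.p6), and capitals mark each CpG dinucleotide. For Acan that start, at 79053226, lies upstream of the GENCODE gene start given above, and the window ends before that gene's first GENCODE base.
Acan, chr7:79052976-79053275, plus strand: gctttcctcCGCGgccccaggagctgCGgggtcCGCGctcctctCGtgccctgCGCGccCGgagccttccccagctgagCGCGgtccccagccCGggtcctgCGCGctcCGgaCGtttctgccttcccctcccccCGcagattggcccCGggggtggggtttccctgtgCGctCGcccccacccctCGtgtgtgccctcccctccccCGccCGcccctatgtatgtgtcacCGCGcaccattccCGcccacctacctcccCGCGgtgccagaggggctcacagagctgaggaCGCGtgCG
Vcan, chr13:89742463-89742762, minus strand: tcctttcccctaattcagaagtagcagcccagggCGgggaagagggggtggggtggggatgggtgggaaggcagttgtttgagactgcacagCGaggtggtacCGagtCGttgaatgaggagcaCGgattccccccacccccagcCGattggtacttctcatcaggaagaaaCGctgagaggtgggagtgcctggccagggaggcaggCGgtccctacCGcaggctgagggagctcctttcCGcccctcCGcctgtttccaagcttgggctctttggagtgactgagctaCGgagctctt

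The Acan promoter holds 31 CpG dinucleotides and is 74% G and C. At least as many CpGs are found in 10.6% of the 32851 RefSeq promoters of this length, whose median is 7. The Vcan promoter holds 12 CpGs and is 61% G and C, and 39.6% of promoters hold at least as many. Searched for on both strands were the SMAD box (CAGAC), the AP-1 site (TGANTCA), the SOX core (AACAAT) and the TATA box (TATAAA). They occur in 49.6%, 7.81%, 10.7% and 13.6% of all promoters in that order. Neither the Acan nor the Vcan window has a match to any of them, which says only that these letters are not in these windows. The table has promoters for 7 of the 10 genes; those of Has2, Adamts4 and Adamts5 are not in it.

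**Figure D1:**
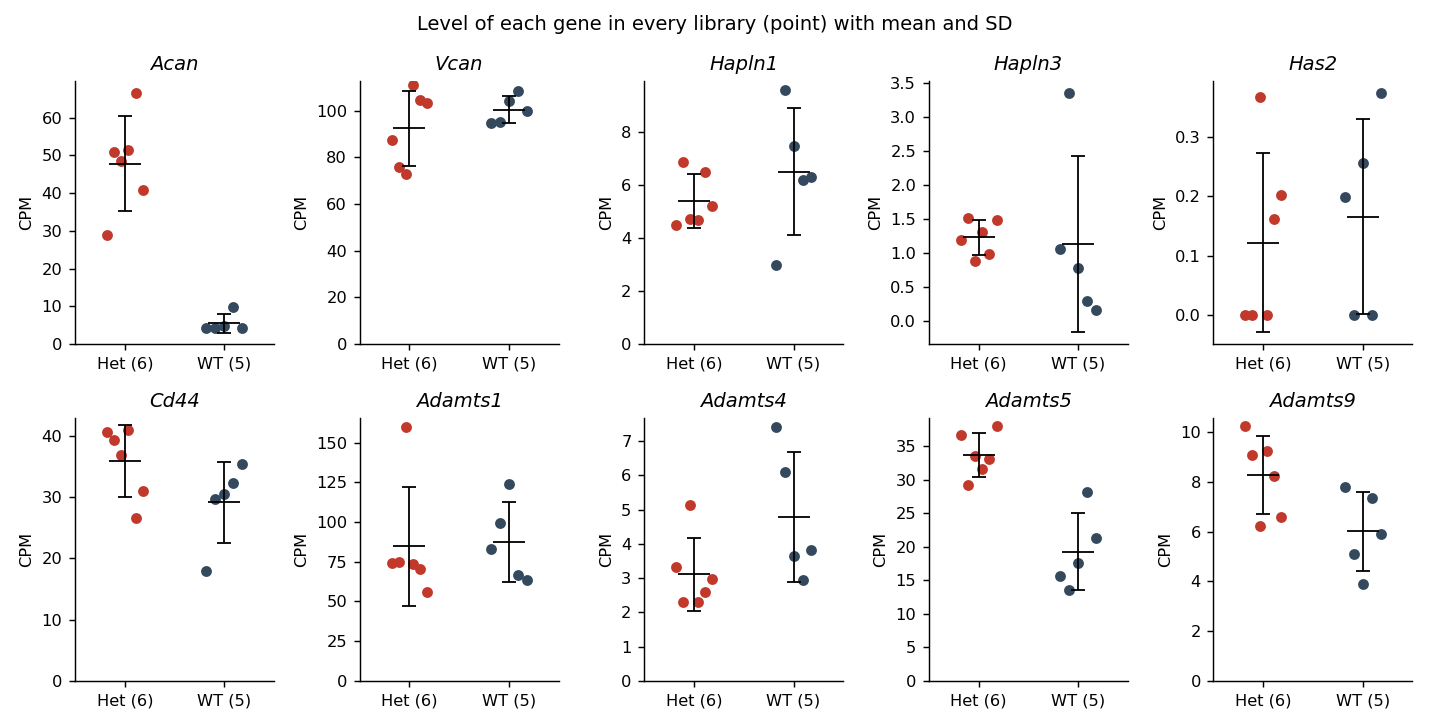
Level of each of the 10 genes in CPM (vertical axes, a separate linear scale for each gene) in the 6 Het libraries (left, red) and the 5 WT libraries (right, blue); points are libraries, and bars give the mean and SD. Acan and Adamts5 are the genes whose Het points all lie above their WT points, and the axis of Has2 spans less than 0.5 CPM.

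The link proteins Hapln1 and Hapln3 stabilise the binding of a lectican to hyaluronan, and both were low. Hapln1 had a lowest, median and highest value of 4.51, 4.95 and 6.85 CPM in Het, against 2.98, 9.58, 7.44, 6.17 and 6.28 CPM in WT 1 to 5. All Het values lay inside the WT range. With a log2 fold change of -0.26 ± 0.24 (SE) it did not pass (adjusted p = 0.620, edgeR). Hapln1 (chr13:89539796-89611652, plus strand) neighbours Vcan and runs towards it, with 43659 bases between them.

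Hapln3 had 0.882, 1.24 and 1.51 CPM as its lowest, median and highest values in Het, against 1.06, 3.35, 0.770, 0.294 and 0.150 CPM in WT 1 to 5. Again the Het values lay inside the WT range, which WT 2 stretched upwards. A log2 fold change of 0.11 ± 0.56 (SE; adjusted p = 0.949, edgeR) spans differences of either sign. Without WT 1 and WT 2 it was 1.51 ± 0.52, with an adjusted p of 0.157 (edgeR). Hapln3 (chr7:79115102-79131018, minus strand) ends 2 bases from the end of Acan on the other strand. The libraries do not mark strand, so reads running past either end cannot be assigned with certainty. Hapln3 averaged 1.22 ± 0.260 CPM in Het and 1.12 ± 1.30 CPM in WT (SD, n = 6 and 5), the WT mean resting on WT 2, without which the log2 fold change was 1.06; the part of reads from Acan in its counts was not tested.

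Has2 makes the hyaluronan to which lecticans bind and is needed for heart and vessel development in the mouse embryo. It was close to absent here. Its counts were 0, 0, 5, 0, 3 and 3 in Het 1 to 6, against 3, 0, 5, 0 and 5 in WT 1 to 5. Summed over libraries these are 11 counts in Het, or 0.126 CPM (exact Poisson 95% interval 0.0629 to 0.225), and 13 counts in WT, or 0.170 CPM (0.0905 to 0.291). The intervals cover counting error only and overlap, so no difference was detectable at this depth. Part of these few reads may belong to the antisense gene Has2os, which shares 182 exon bases with Has2 (chr15:56665627-56694539, minus strand) and had 28 counts in Het and 41 in WT.

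Cd44, the hyaluronan receptor of the cell surface, had 26.5, 38.1 and 40.9 CPM as lowest, median and highest values in Het, against 17.9, 29.6, 30.5, 32.2 and 35.3 CPM in WT 1 to 5. In Het, 4 of 6 libraries lay above the highest WT library, and the other two lay among the WT values. Its log2 fold change of 0.30 ± 0.16 (SE) did not pass (adjusted p = 0.328, edgeR).

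The aggrecanases differed from each other in level and in difference between genotypes. Adamts5, which in mouse joints is the main enzyme that cuts aggrecan, was the other member that rose. It had 29.2, 33.3 and 38.0 CPM as lowest, median and highest values in Het, against 15.7, 13.6, 17.6, 28.1 and 21.3 CPM in WT 1 to 5. No value overlapped, although the lowest Het library and the highest WT library, WT 4, were only about 1 CPM apart. The means were 33.7 ± 3.24 CPM in Het and 19.3 ± 5.72 CPM in WT (SD, n = 6 and 5). The log2 fold change was 0.81 ± 0.16 (SE; adjusted p = 0.00781, edgeR), a 1.75-fold difference.

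Adamts5 kept its size but not its call when sex was taken into account. With the sex score its log2 fold change was 0.78 ± 0.22, and the adjusted p was 0.145 (edgeR). Within the Xist-positive libraries it was 0.78 ± 0.25, with an adjusted p of 0.350 (edgeR, 2 Het and 5 WT). Without WT 1 and WT 2 it was 0.60 ± 0.15, with an adjusted p of 0.0422 (edgeR). The gene (ENSMUSG00000022894) lies at chr16:85856173-85901828 on the minus strand, 53059 bases from Adamts1, which is on the same strand.

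Adamts1, an aggrecanase that also cuts versican, did not follow its neighbour. It had 55.8, 74.1 and 160 CPM as lowest, median and highest values in Het, against 82.8, 99.4, 124, 66.7 and 63.5 CPM in WT 1 to 5. The highest library of all was Het 3, and 5 of the 6 Het libraries lay below the WT median of 82.8 CPM. The log2 fold change of -0.04 ± 0.25 (SE; adjusted p = 0.958, edgeR) had no stable sign when single libraries were left out, running from -0.32 to 0.12. Adamts1 had the highest transcript level of the 10 genes for its length. Among the 7 genes with a RefSeq promoter here, which leave out Has2, Adamts4 and Adamts5, it is the one with a TATA box near the start. The stretch of its RefSeq promoter around the start (GRCm38.p6), 5′ to 3′ on the gene's strand with the motif in capitals, is shown for that reason.
Adamts1, chr16:85803074-85803173, minus strand: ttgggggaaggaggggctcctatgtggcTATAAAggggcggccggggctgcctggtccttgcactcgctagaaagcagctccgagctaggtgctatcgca
The TATAAA begins 32 bases before the annotated start. A TATAAA that begins 40 to 20 bases before the start on the gene's strand is found in 1.99% of the 32851 promoters. Of the other motifs, Hapln1 holds 1 SMAD box, and Hapln3 holds 1 SMAD box, 1 SOX core and 1 TATA box, the last pair overlapping each other, while the windows of Cd44 and Adamts9 have no match to any motif.

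Adamts4, the other aggrecanase best known from cartilage, was scarce. It had 2.31, 2.78 and 5.14 CPM as lowest, median and highest values in Het, against 7.42, 6.10, 3.65, 2.94 and 3.81 CPM in WT 1 to 5. In Het, 3 libraries lay below the lowest WT library, and the groups overlapped. The log2 fold change was -0.62 ± 0.28 (SE), and the adjusted p of 0.241 (edgeR) missed the threshold. Adamts4 lies on the plus strand at chr1:171250421-171260637.

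Adamts9, a protease that cuts versican and aggrecan, had 6.25, 8.66 and 10.3 CPM as lowest, median and highest values in Het, against 7.81, 5.09, 3.90, 7.35 and 5.91 CPM in WT 1 to 5. All 6 Het libraries lay above the WT median of 5.91 CPM, and 4 of them above the highest WT library. The log2 fold change of 0.46 ± 0.20 (SE) did not pass (adjusted p = 0.221, edgeR). Its exons at chr6:92772699-92943492 (minus strand) overlap those of A730049H05Rik and Gm15737 on the other strand, both of which had at most 4 counts in any library.

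In sum, 2 of the 9 tested members rose, 0 fell and 7 did not pass, beside 2.65% of all tested genes that rose and 2.38% that fell. Unadjusted p was under 0.05 for 4 members. The largest of these 4, that of Adamts4, ranked 2693 by p (edgeR), so at least 2693 of the 14757 tested genes were also under 0.05. Every Het library lay above every WT library for 2 members, beside 2.41% of all genes, and for 0 members the Het libraries all lay below, beside 2.2% of all genes. The median log2 fold change was 0.11 over the 9 members and -0.0046 over all tested genes. With the sex score 1 member rose (0.42% of all genes), and within the Xist-positive libraries also 1 (0.122% of all genes); it was Acan both times.

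**Figure D2:**
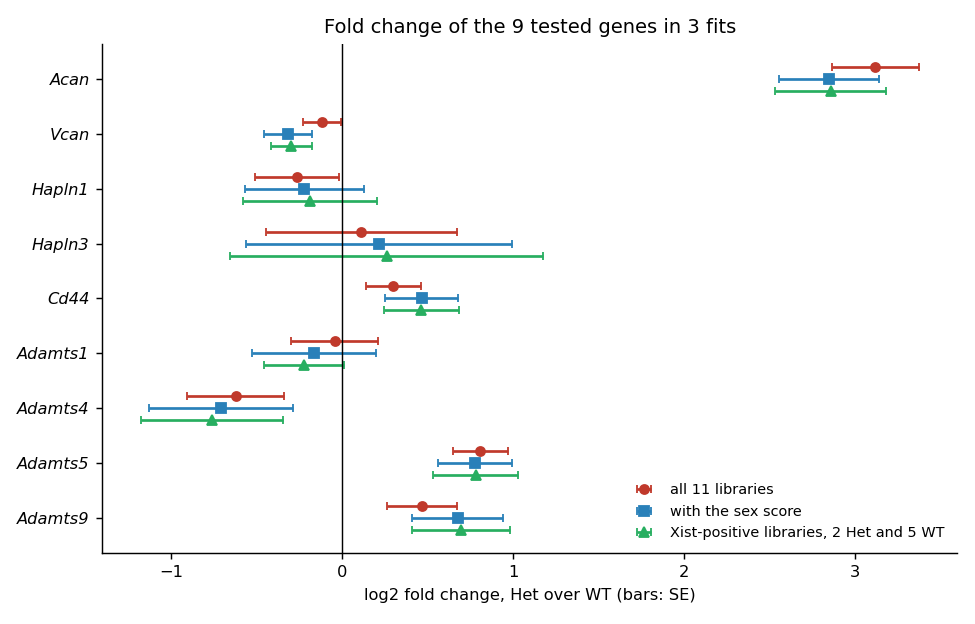
Log2 fold change, Het over WT (horizontal axis), of the 9 tested genes, with bars of 1 standard error, in all 11 libraries (red circles), with the sex score in the fit (blue squares) and in the 7 Xist-positive libraries (green triangles). Acan lies between 2.85 and 3.12 in the 3 fits, Adamts5 between 0.78 and 0.81, and the other genes stay within 1 log2 unit of 0.

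Levels of different genes were compared per length, as CPM per kilobase of exon. In Het the order of the means was Adamts1 at 16.0, Acan at 6.41, Vcan at 6.39, Cd44 at 5.29, Adamts5 at 3.12, Hapln1 at 0.916, Adamts4 at 0.646, Adamts9 at 0.550, Hapln3 at 0.348 and Has2 at 0.0288 CPM per kb. In WT it was Adamts1 at 16.5, Vcan at 6.94, Cd44 at 4.30, Adamts5 at 1.78, Hapln1 at 1.10, Adamts4 at 0.994, Acan at 0.743, Adamts9 at 0.400, Hapln3 at 0.320 and Has2 at 0.0391 CPM per kb. Per kb of exon, Acan thus stood in position 2 in Het, against position 7 in WT. Neighbours in Het whose library ranges did not overlap were Adamts1 and Acan, Cd44 and Adamts5, Adamts5 and Hapln1, and Hapln3 and Has2. In WT the separate neighbours were Adamts1 and Vcan, Vcan and Cd44, Cd44 and Adamts5, and Acan and Adamts9. All other neighbours overlapped, among them Acan and Vcan in Het. The order depends on the length used: with the longest transcript, Adamts9 had 1.03 CPM per kb in Het and 0.750 CPM per kb in WT. It then stood above Hapln1 and Adamts4 in Het and overlapped Acan in WT, and Vcan, at 7.44 CPM per kb, stood above Acan, at 6.51 CPM per kb, in Het. With coding lengths the order was not computed. Cd44 and Adamts5 have 2340 and 2790 coding bases, against 6396 for Acan, so their order relative to Acan in Het may differ there.

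**Figure D3:**
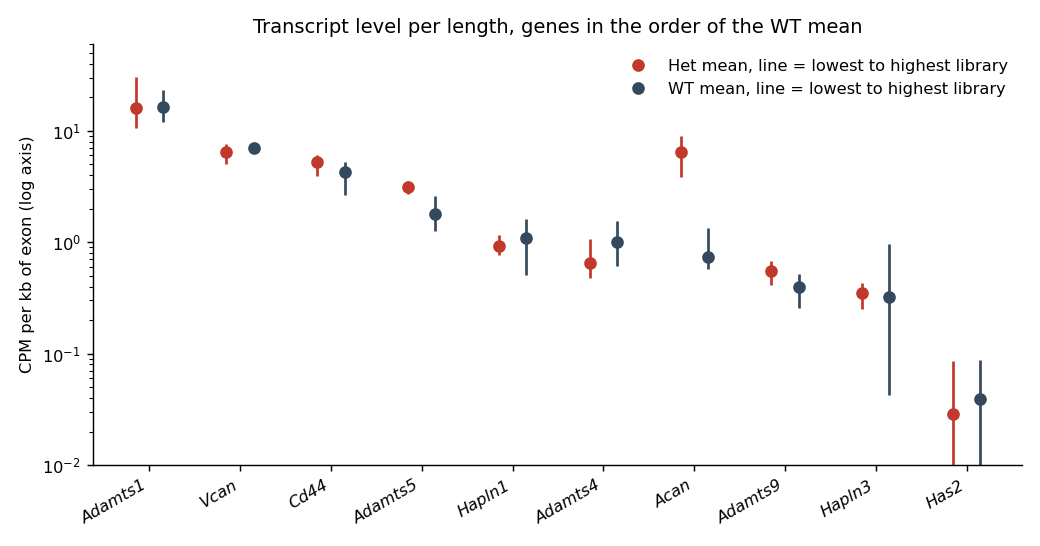
Mean level of each gene in CPM per kb of exon on a log axis, with genes in the order of the WT mean; red marks Het and blue WT, and lines run from the lowest to the highest library (libraries at 0 for Has2 lie off the log axis). Acan has 6.41 CPM per kb in Het, near Vcan at 6.39, against 0.743 CPM per kb in WT, while the Het and WT lines of all other genes but Adamts5 overlap.

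The balance of the 2 large proteoglycans differed accordingly. The ratio of Acan to Vcan, per length, was 0.641, 1.30, 1.29, 0.898, 1.23 and 0.766 in Het 1 to 6, against 0.0878, 0.0900, 0.0899, 0.177 and 0.0827 in WT 1 to 5. Per kb of exon, the mean level of Acan was therefore close to that of Vcan in Het, and far below it in WT. Vcan has 9 annotated transcripts, which gene counts do not separate, so the ratio is not a count of molecules. As a share of the sum of both, Acan made up 49.6% ± 7.47 in Het and 9.46% ± 3.14 in WT (SD, n = 6 and 5), with ranges of 39.1 to 56.6% and 7.64 to 15.1%. The sum itself was 12.8 ± 2.22 CPM per kb in Het and 7.69 ± 0.693 CPM per kb in WT (SD, n = 6 and 5), and every Het library was above every WT library. With lengths from the longest transcript the mean ratio was 0.891 in Het and 0.0921 in WT, and with coding lengths 0.829 in Het and 0.0858 in WT.

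**Figure D4:**
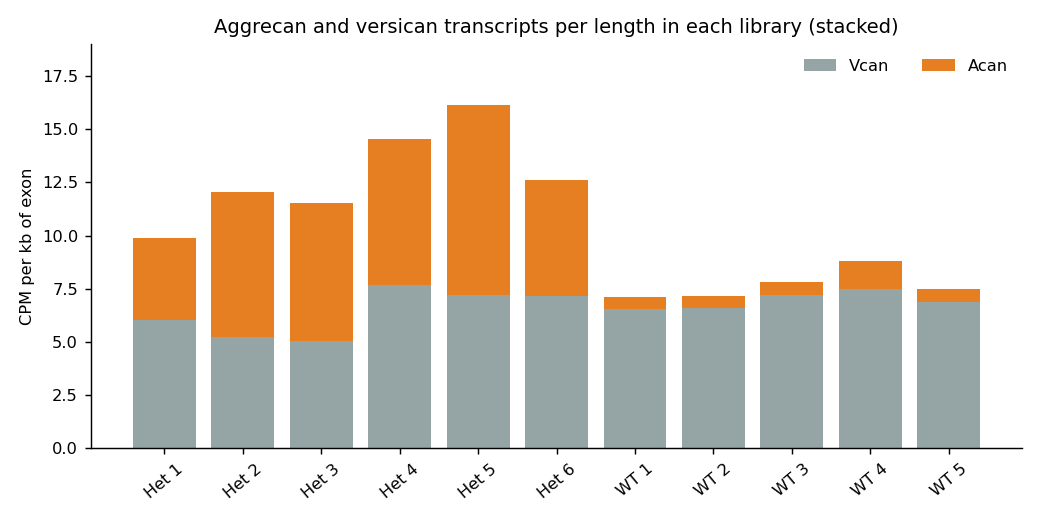
Stacked level of Vcan (grey, bottom) and Acan (orange, top) in CPM per kb of exon in each library, Het 1 to 6 on the left and WT 1 to 5 on the right. The orange part is 39.1 to 56.6% of each Het bar and 7.64 to 15.1% of each WT bar, while the grey parts overlap between the groups.

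No comparable difference was seen in the total of the proteases. The sum of the 4 aggrecanases was 20.3 ± 7.19 CPM per kb in Het and 19.6 ± 4.38 CPM per kb in WT (SD, n = 6 and 5), with overlapping ranges. Adamts1 was most of it, at 77.3% in Het and 82.9% in WT. Adamts5 was 16.6% ± 4.68 of the sum in Het and 9.75% ± 4.54 in WT (SD, n = 6 and 5), and these shares overlapped. Per kb of exon, the ratio of Acan to Adamts5 was 2.09 ± 0.649 in Het and 0.412 ± 0.0843 in WT (SD, n = 6 and 5), with no overlap. The size of this ratio depends on the length used. Adamts5 has 10791 exon bases but 2790 coding bases, against 7469 and 6396 for Acan. With coding lengths this ratio was not computed, so it does not show which transcript was more abundant. The sum of the link proteins was 1.26 ± 0.202 CPM per kb in Het and 1.42 ± 0.689 CPM per kb in WT (SD, n = 6 and 5).

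Spread within a group was not the same for all members. Adamts5 varied by 9.62% in Het and 29.7% in WT (coefficients of variation), where counting alone gives 4.51% and 5.87%. Acan varied by 26.1% in Het and 44.3% in WT, the WT value resting on WT 4. Adamts1 varied by 44.3% in Het and 28.7% in WT, and the Het value rests on Het 3. Hapln3 varied by 21.3% in Het, below the 23.8% that counting gives, and by 115% in WT. None of these differences in spread was tested.

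Other genes of the pathway were read from lists in the same fit. Of 8 lecticans and link proteins, 5 were tested: Acan rose and 4 did not pass, with a median log2 fold change of 0.11. Ncan, the neurocan of brain matrix, averaged 20.8 ± 6.42 CPM in Het and 14.6 ± 1.75 CPM in WT (SD, n = 6 and 5), with a log2 fold change of 0.51 ± 0.20 that did not pass (adjusted p = 0.173, edgeR). Without Het 3, Ncan passed (0.65 ± 0.14, adjusted p = 0.0181, edgeR). Bcan, the brevican of brain, and Hapln4, a link protein of brain, had at most 2 and 3 counts in any library.

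Among 22 genes of hyaluronan synthesis, turnover and binding, 16 were tested, 0 rose and 1 fell, with a median log2 fold change of -0.02. The number that rose was the same in 23 of 24 alternative fits, and the number that fell in 19. The gene that fell was Itih3, a heavy chain of the inter-alpha-trypsin inhibitor that is coupled to hyaluronan. Itih3 had 36.0 ± 8.50 CPM in Het and 58.2 ± 3.34 CPM in WT (SD, n = 6 and 5), and every Het library lay below every WT library. Its log2 fold change was -0.69 ± 0.14 (SE; adjusted p = 0.00864, edgeR), and with the sex score -0.50 ± 0.19 (adjusted p = 0.324, edgeR).

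The other synthases were scarce too. Has1 averaged 0.368 ± 0.400 CPM in Het and 0.418 ± 0.284 CPM in WT (SD, n = 6 and 5) and was not tested. Has3 had 0.682 ± 0.321 CPM in Het and 1.14 ± 1.12 CPM in WT (SD, n = 6 and 5), where WT 1 alone reached 3.11 CPM. The hyaluronidases Hyal1 and Hyal2 had log2 fold changes of -0.17 ± 0.08 (adjusted p = 0.223, edgeR) and -0.32 ± 0.10 (adjusted p = 0.0725, edgeR), neither past the threshold. Hyal2 passed with DESeq2 (adjusted p = 0.0337) and without WT 5 (log2 fold change -0.38 ± 0.09, adjusted p = 0.0267, edgeR), and DESeq2 called 3 genes of the list that fell. Cemip2, which cuts hyaluronan at the cell surface, and Lyve1, the hyaluronan receptor of lymphatic vessels, had log2 fold changes of -0.03 ± 0.12 and 0.43 ± 0.35, and neither passed.

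Chondroitin sulfate chains, which lecticans carry, are made by a separate set of enzymes. Of 26 such genes 24 were tested, and 0 rose and 0 fell in edgeR, with a median log2 fold change of -0.03. DESeq2 called 1 that rose. The number that fell was the same in 23 of 24 alternative fits, as was the number that rose. Xylt1, which starts the chain, had a log2 fold change of -0.06 ± 0.15, and Chsy1, which extends it, of -0.05 ± 0.18; neither passed.

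In the ADAMTS family of 19 genes, 4 of them members, 15 were tested, and 2 rose and 2 fell, with a median log2 fold change of 0.21. Beside Adamts5, Adamts2 rose, a protease that trims procollagen, with 443 ± 43.5 CPM in Het and 344 ± 39.5 CPM in WT (SD, n = 6 and 5) and a log2 fold change of 0.37 ± 0.09 (adjusted p = 0.0326, edgeR). Adamts6 and Adamts10, a related pair known in the mouse for acting on fibrillin matrix, fell. Adamts6 had 3.99 ± 1.12 CPM in Het and 8.04 ± 2.04 CPM in WT (SD, n = 6 and 5; log2 fold change -1.01 ± 0.22, adjusted p = 0.0160, edgeR). Adamts10 had 252 ± 23.9 CPM in Het and 352 ± 71.3 CPM in WT (SD, n = 6 and 5; log2 fold change -0.48 ± 0.12, adjusted p = 0.0285, edgeR). The call of Adamts2 was lost when any of 8 of the 11 libraries was left out (adjusted p up to 0.0912; WT 1 to 4, Het 1 and Het 4 to 6). For Adamts10 the same held of WT 1, WT 2, Het 2, Het 4 and Het 6 (adjusted p up to 0.0792). With the sex score none of these 4 calls held, with log2 fold changes of 0.78 ± 0.22 for Adamts5, 0.27 ± 0.13 for Adamts2, -0.86 ± 0.32 for Adamts6 and -0.45 ± 0.17 for Adamts10. Without WT 1 and WT 2 only that of Adamts5 held; Adamts2 was 0.39 ± 0.11, Adamts6 -0.99 ± 0.26 and Adamts10 -0.28 ± 0.10. Adamts8 and Adamts15, further proteases reported to cut aggrecan, had log2 fold changes of 0.21 ± 0.20 and 0.24 ± 0.16 and did not pass, and Adamts20, with at most 18 counts, was not tested.

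Ligands of lecticans, the aggrecanase inhibitor Timp3 and further matrix and cell-surface genes made a list of 11. Not all of these, Ptprz1, Lrp1 and Sdc4 among them, are established ligands of lecticans. Of the list 10 were tested, 2 rose and 1 fell, with a median log2 fold change of 0.25. Tnc, the tenascin that binds lectican C-terminal domains, had 156 ± 32.4 CPM in Het and 53.3 ± 7.83 CPM in WT (SD, n = 6 and 5; log2 fold change 1.55 ± 0.14, adjusted p = 1.53e-05, edgeR). Ptprz1, a receptor phosphatase with chondroitin sulfate chains of its own, had 101 ± 9.97 CPM in Het and 45.1 ± 6.68 CPM in WT (SD, n = 6 and 5; log2 fold change 1.17 ± 0.10, adjusted p = 1.02e-05, edgeR). For both, every Het library lay above every WT library, and both calls held in all 24 alternative fits. Fbln1, a fibulin that is a cofactor of Adamts1, had 45.0 ± 10.2 CPM in Het and 70.0 ± 12.3 CPM in WT (SD, n = 6 and 5; log2 fold change -0.64 ± 0.15, adjusted p = 0.0227, edgeR). Leaving out 1 of WT 1, WT 3, Het 2, Het 4 and Het 5 ended that call, with an adjusted p of up to 0.0612. Fitted beside the sex score its log2 fold change kept about its size but missed the threshold (-0.65 ± 0.22, adjusted p = 0.274, edgeR), as it did without WT 1 and WT 2 (-0.61 ± 0.16, adjusted p = 0.0621, edgeR). Timp3 averaged 108 ± 6.71 CPM in Het and 110 ± 26.5 CPM in WT (SD, n = 6 and 5), a log2 fold change of -0.02 ± 0.12 that did not pass and whose sign was not stable under upper quartile scaling.

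**Figure D5:**
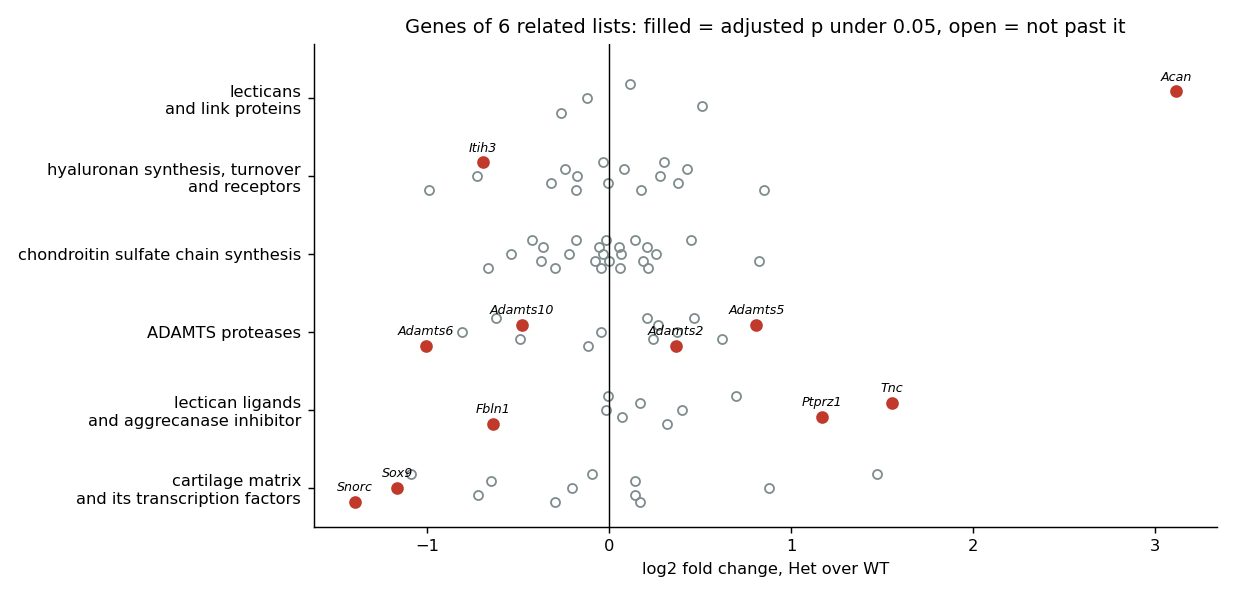
Log2 fold change, Het over WT (horizontal axis), of every tested gene in 6 lists of related genes (rows); filled red points have an adjusted p under 0.05 and are named, and open points do not pass. Acan stands at 3.12 in the lectican list, Tnc at 1.55 among the ligands, and the lists centre near 0, with medians from -0.20 to 0.25.

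Of 22 cartilage genes 13 were tested, and 0 rose and 2 fell, with a median log2 fold change of -0.20. Sox9, the transcription factor that drives cartilage genes, had 2.94 ± 1.30 CPM in Het and 6.56 ± 1.79 CPM in WT (SD, n = 6 and 5; log2 fold change -1.16 ± 0.29, adjusted p = 0.0270, edgeR). Leaving out 1 of WT 1, WT 2, Het 1, Het 2, Het 5 and Het 6 ended the call (adjusted p up to 0.0770). With the sex score the Sox9 difference was larger but missed the threshold (-1.57 ± 0.42, adjusted p = 0.124, edgeR), and without WT 1 and WT 2 it was smaller (-0.85 ± 0.32, adjusted p = 0.190, edgeR). Snorc, a small membrane proteoglycan of cartilage, had 0.575 ± 0.184 CPM in Het and 1.53 ± 0.558 CPM in WT (SD, n = 6 and 5; log2 fold change -1.40 ± 0.38, adjusted p = 0.0453, edgeR), and when single libraries were left out its call held only in the fit without WT 1 (adjusted p up to 0.125 in the others). The Snorc call was also lost with the sex score (-1.59 ± 0.58, adjusted p = 0.311, edgeR), with voom (adjusted p = 0.0715) and with no filter on low counts (adjusted p = 0.0956, edgeR). Col2a1, the main collagen of cartilage, had at most 10 counts in any library, at 0 to 0.674 CPM in Het and 0 to 0.294 CPM in WT. Summed over the 12 chondrocyte markers the level was 10.9 to 14.9 CPM in Het and 18.8 to 23.0 CPM in WT, and Matn1 and Ucma were at 0 in all libraries. Most of this sum was Sox9 and Chad. Chad, with 4.19 ± 1.73 CPM in Het and 6.58 ± 0.928 CPM in WT, did not pass (adjusted p = 0.227, edgeR). Of the 7 tested markers 0 had a positive log2 fold change, while the untested Col2a1, Col9a2 and Cnmd had higher means in Het.

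Markers of other cells were summed in the same way. Smooth muscle markers, which define the labelled cells with endothelial ones, came to 30473 to 41502 CPM in Het and 33606 to 38122 CPM in WT, and 1 of 8, the contractile gene Cnn1, fell. Most of that sum was Acta2, with means of 27878 CPM in Het and 27064 CPM in WT. Endothelial markers came to 334 to 538 CPM in Het and 360 to 490 CPM in WT, with 0 of 8 past the threshold. Most of this sum was Pecam1, with means of 243 CPM in Het and 296 CPM in WT (log2 fold change -0.28 ± 0.15). Of the 8, 5 had a positive log2 fold change. Fibroblast markers, whose cells also make lecticans, came to 1493 to 2329 CPM in Het and 1430 to 2134 CPM in WT; 3 of 8 (Dpep1, Cd248 and Col15a1) rose and 1 (Pi16) fell. Markers of endocardium and valve, another source of Vcan and Acan, came to 174 to 229 CPM in Het and 203 to 277 CPM in WT; of 6, Npr3 rose and Cthrc1 fell. Skeletal muscle markers were lower, at 8.83 to 16.6 CPM in Het and 21.3 to 43.2 CPM in WT, and 2 of the 4 tested (Tnnt3 and Tnni2) fell. Cardiomyocyte markers came to 26.97 to 35.5 CPM in Het and 28.7 to 40.1 CPM in WT, and 1 of the 6 tested, the calcium channel gene Ryr2, rose. None of these 10 calls held with the sex score, and those of Cnn1, Dpep1 and Cthrc1 were also lost without WT 1 and WT 2. With each of the 11 libraries left out in turn, the Col15a1 call was lost in 9 fits (adjusted p up to 0.122, edgeR). Cd248 lost its call in 8 such fits, Cnn1 in 8, Dpep1 in 7 and Cthrc1 in 5 (adjusted p up to 0.102, edgeR). Pi16, Npr3, Tnnt3, Tnni2 and Ryr2 lost theirs in 0. Macrophage markers ranged from 38.5 to 115 CPM in Het and from 34.0 to 101 CPM in WT, and adipocyte markers from 329 to 2082 CPM in Het and from 767 to 2781 CPM in WT, with 0 genes past the threshold in either list. T cell and thymocyte markers had 2.45 to 33.2 CPM in Het and 4.29 to 9.57 CPM in WT. Neuron and Schwann cell markers had 7.64 to 16.8 CPM in Het and 7.86 to 15.5 CPM in WT. In both of these lists 0 genes passed. Airway markers had 0.0674 to 0.846 CPM in Het and 0.0513 to 6.30 CPM in WT, and 0 were tested. The part of fibroblasts, valve or skeletal muscle in the difference of Acan or Adamts5 was not tested.

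At the Acan locus the difference was not shared by the next genes alike. Mfge8, which encodes the aortic protein lactadherin, had 589 ± 55.0 CPM in Het and 383 ± 22.4 CPM in WT (SD, n = 6 and 5), and rose with a log2 fold change of 0.62 ± 0.08 (adjusted p = 3.52e-04, edgeR). It passed in 23 of 24 alternative fits, the exception being the Xist-positive libraries alone (0.67 ± 0.12, adjusted p = 0.0703, edgeR). Isg20 had a log2 fold change of -0.57 ± 0.26 and did not pass (adjusted p = 0.231, edgeR), and Hapln3, between Acan and Mfge8, has its values above.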

How the data were processed

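RNA of 6 Het and 5 WT aortic arches was sequenced from unstranded Nextera XT libraries, per the labels' protocols, on 2 runs whose reads the files do not separate. Listed without roles in the submitters' processing notes are GRCm38, limma, edgeR, DESeq2 and STAR 2.5.2a; which counter and gene annotation were used is not given in the sources used here. Deposited by the authors were whole-number counts for 48733 rows, of which 24 name no mouse gene and were left out (at most 8.06e-05 percent of a library). They also deposited a smaller count table and a signal named as TMM-normalised CPM, used only in an alternative; own and deposited CPM differ by at most 0.813 percent. Gene positions and lengths come from GENCODE M21 (GRCm38).

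Genes passing filterByExpr (minimum count 10, minimum total 15; 14757) were scaled by TMM and tested, Het against WT, in all 11 libraries, with no covariate, by the robust quasi-likelihood F test of edgeR (version 4.0.16, under R 4.3.3); the threshold was a Benjamini-Hochberg adjusted p of 0.05 over all tested genes. Standard errors are the size of the log2 fold change over the root of F. Across genes the common biological coefficient of variation was 0.215. Counting error alone is covered by intervals and floors. The members and lists were chosen with earlier results of these data known. Named were all members, up to 3 further genes per direction from each list, by adjusted p, and a fixed set; Mfge8, Isg20, Has2os and the genes overlapping Adamts9 were added as neighbours or overlaps of members, and cell markers that passed as such, once their values had been seen. Tried as alternatives were other scalings, filters and tools (DESeq2 1.42.0, limma 3.58.1 voom and trend with pseudocounts of 1 and 0.5), a replicate block, a sex score (mean log2 CPM of Y-linked genes minus that of Xist), the libraries with at least 100 Xist counts, leaving out WT 1 and WT 2, the number in the column names, and each library left out in turn. Same-numbered libraries did not deviate together (correlations of -0.214 to 0.0595), so the numbers were not taken as pairs. Each library was taken as 1 animal, as the series counts mice; no libraries were duplicates.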

Additional observations from a re-analysis of the deposited data

Results flagged for a closer look

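Of 88 groups of values examined, 13 held a library far from the others of its group by Dixon's test, where chance flags about 1 in 20. WT 4 had 9.92 CPM of Acan, against 4.26 to 4.83 CPM in the other WT libraries, and with it an Acan to Vcan ratio of 0.177, where the others had 0.0827 to 0.0900, and an Acan share of 15.1%, where the others had 7.64 to 8.26%. WT 4 also had 0.294 CPM of Col2a1, a few counts, where the others had at most 0.0747 CPM. WT 2 had 3.35 CPM of Hapln3 (others 0.150 to 1.06), WT 5 had 48.8 CPM of Tgfbr2 (others 38.3 to 41.0), and WT 1 had 3.11 CPM of Has3 (others 0.441 to 0.924) and 22.2 CPM of Adamts8 (others 12.0 to 12.7).

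Het 3 had 160 CPM of Adamts1, where the other Het libraries had 55.8 to 74.8, and 5.14 CPM of Adamts4 (others 2.31 to 3.33). It therefore had the highest aggrecanase sum, 34.8 CPM per kb (others 15.1 to 18.8), and the lowest Adamts9 share of it, 1.19% (others 2.91 to 3.63%). It also had 1.32 CPM of Adamts20 (others 0 to 0.488). Adamts5 in Het 3 was 33.6 CPM, inside the range of the other Het libraries.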

How the results depend on the processing

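Acan passed in all 24 alternative fits (log2 fold change 2.85 to 3.42) and Adamts5 in 22 (0.60 to 0.98); 1 member rose with the sex score and 1 within Xist-positive libraries, against 2 in all libraries. No member fell in any of the 24. The mean Acan to Vcan ratios moved by less than 1 SD in all 14 alternatives. All genes past the threshold numbered 742, against 1295 with DESeq2, 329 with a replicate block (numbers that do not pair the libraries; 2 members rose), 123 with the sex score, 415 with the column-name number, 34 within Xist-positive libraries, 432 without WT 1 and WT 2, and 458 (without WT 2) to 853 when 1 library was left out. Some log2 fold changes that did not pass changed sign. With 1 library left out, Hapln3 ran from -0.16 to 1.06, Adamts1 from -0.32 to 0.12, Timp3 from -0.10 to 0.14, Has3 from -0.96 to 0.075, Cemip2 from -0.10 to 0.033, Chsy1 from -0.16 to 0.17 and Xylt1 from -0.15 to 0.079. Adamts1 was 0.020 with the replicate block. Timp3 was 0.0046 with upper quartile scaling, 0.013 with voom, 0.015 with trend at either pseudocount, 0.033 with the sex score and 0.039 within Xist-positive libraries. Chsy1 was 0.015 with voom, 0.0097 and 0.010 with trend, 0.061 with the replicate block and 0.34 without WT 1 and WT 2, where Xylt1 was 0.080. The causes were not tested. Itih3 passed in 22 of 24 alternatives, Adamts6 in 20, Fbln1 in 15, Adamts10 in 14, Sox9 in 13, Adamts2 in 12 and Snorc in 5 of 23. Sex and genotype are unevenly divided: 2 of 6 Het and all 5 WT libraries are Xist-positive. The column-name number is uneven too: Het 1, Het 2, Het 4, Het 5 and WT 3 carry 6, and the others 7. What it marks is not given in the sources used here. With this number in the fit Acan and Adamts5 still passed. Adamts10, Fbln1, Sox9, Snorc, Col15a1, Ryr2 and Cthrc1 did not (adjusted p 0.0652 to 0.141, edgeR). Genes near the floor of 0.154 to 0.231 CPM, Has2 among them, cannot be compared at this depth.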
